A study of Oryza sativa with 4 samples.

Results

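Mature miRNA sequences were compared between the control root and the control shoot of rice seedlings, that is, between the tissues of plants that received no NaCl. The 2 deposited lists held 425 distinct sequences, of 783 in the whole series. The control root list held 122 of them and the control shoot list 353. A sequence with a miRBase family name was taken as conserved (45 sequences) and one without as predicted (380 sequences). The plants were Oryza sativa cv. Pokkali, a salt-tolerant indica cultivar, germinated on wet paper and grown in hydroponics. On day 9 the root and the aerial part were taken from seedlings without NaCl and from seedlings 9 h into treatment with 1.5% NaCl, giving control root, control shoot, NaCl-treated root and NaCl-treated shoot. There was 1 library for each, so no difference has a replicate check, no p-value was computed, and every ratio compares 2 libraries. The number of seedlings behind a library is not given in the sources used. The lists hold small RNAs only, so the tissue labels could not be checked against marker mRNAs.

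A plant miRNA is cut by DICER-LIKE proteins from a hairpin transcript, leaves it as a duplex with its passenger strand (miRNA*), and guides an ARGONAUTE protein to mRNAs that pair with it along nearly its whole length. Many conserved families act on transcription factors of organ growth and polarity, and several are known from other plants to differ in level between roots and leaves. The seed, bases 2 to 8, is part of the stretch where pairing to the target is most constrained.

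The sequences on which the comparison turned are given below, 5′ to 3′, with the seed in capitals. Where a family had more than 1 sequence, its members were numbered v1, v2 and so on by their reads in both control libraries, and predicted sequences without a name in the study were numbered pr1, pr2 and so on in the same way. The miR166 family and its near relative pr1 come first because they held the most reads of the root list. All but miR166-v4, which comes from the other arm of a hairpin, differ from each other by shifted ends or substituted bases.
miR166-v1: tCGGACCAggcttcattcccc
miR166-v2: tCTCGGACcaggcttcattcc
miR166-v3: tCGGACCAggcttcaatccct
miR166-v4: gGAATGTTgtctggttcaagg
miR166-v5: tCGGACCAggcttcattccc
pr1: tCTCGGATcaggcttcattcc
The miR396, miR319 and miR159 sequences are shown because they gave wide ratios or, at the same hairpin or within a family, were listed in different forms.
miR396-v1: tTCCACAGctttcttgaactt
miR396-v2: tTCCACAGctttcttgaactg
miR319: tTGGACTGaagggtgctccct
pr4: cTTGGACTgaagggtgctccct
miR159-v1: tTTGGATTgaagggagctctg
miR159-v2: cTTGGATTgaagggagctct
The miR167 sequences are shown because they share 1 seed and differ at the 3′ end between the lists.
miR167-v1: tGAAGCTGccagcatgatctga
miR167-v2: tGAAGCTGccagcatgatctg
miR167-v3: tGAAGCTGccagcatgatct
miR167-v4: tGAAGCTGccagcatgatcta
The last set holds the most abundant or most unequal predicted sequences and the relatives they overlap.
osa-miR12474: gCCCCGCGtcgcacggattcgt
osa-miR12476: aTTAATAGggacagtcgggggc
pr10: tTAATAGGgacagtcgggggc
osa-miR12477: tTGAGTGCagcgttgatgaacc
miR397: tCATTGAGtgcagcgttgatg
pr29: tTGAGTGCagcgttgatgaac
pr6: tCTCTCTCtcccttgaaggct
pr2: tCCATTGTcgtctagtccgg
osa-miR12479: tTAGTTCAcatcaatcttcct
The seed of miR166-v1 is shared by miR166-v3 and miR166-v5, whereas miR166-v2 begins 2 bases further upstream and so carries another seed. miR396-v1 and miR396-v2 have the same seed and differ by T21G, counted from the 5′ end with the base of the first-named sequence first.

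Levels are given as RPM, the reads of a sequence per 1000000 of the reads that the authors used for the search, which numbered 6887961 in control root and 13116913 in control shoot. A single read was thus 0.145 RPM in root and 0.0762 RPM in shoot. The listed sequences took 33258 reads in root and 60792 in shoot, which is 0.483% and 0.463% of the reads used. For a sequence listed in both libraries the ratio of root over shoot was given an exact (Clopper-Pearson) 95% interval, which covers counting error only. A call of higher in root required a ratio of 2 or more, a call of lower in root one of 0.5 or less, and both an interval without 1 in it. An unlisted sequence is not a count of 0, since a list contains only what passed the prediction of the authors, with 2 reads as its lowest count.

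Conserved sequences made up 97.0% of the listed reads in root and 46.8% in shoot. In root they summed to 4684 RPM and the predicted ones to 145 RPM. In shoot the sums were 2167 RPM and 2467 RPM, the latter mostly from osa-miR12474, which alone had 29014 reads (2212 RPM, 47.7% of the listed reads) and was not listed in root. The total of listed reads per read used was nearly the same in both libraries, with a ratio of root over shoot of 1.04 (1.03 to 1.06), and became 1.99 without osa-miR12474.

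Both libraries listed 23 of the 45 conserved sequences, while 8 stood in the root list only and 14 in the shoot list only. The shared ones held 98.9% of the conserved reads of root and 96.7% of those of shoot. Among them 4 were called higher in root (miR166-v1, miR166-v2, miR319 and miR396-v2) and 7 lower in root (miR156-v1, miR166-v3, miR169-v1, miR394, miR396-v1, miR398 and miR529), with 12 called neither. Over all 50 sequences listed in both, 14% were called higher and 22% lower in root. The median log2 ratio of root over shoot was -0.66 for the shared conserved sequences, 0.22 for the shared predicted ones and -0.30 for all of them. These splits depend on the denominator. With raw reads in place of the reads used, the conserved calls were 3 higher and 13 lower, and with TMM factors of edgeR or the median of ratios 6 higher and 5 lower.

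**Figure D1:**
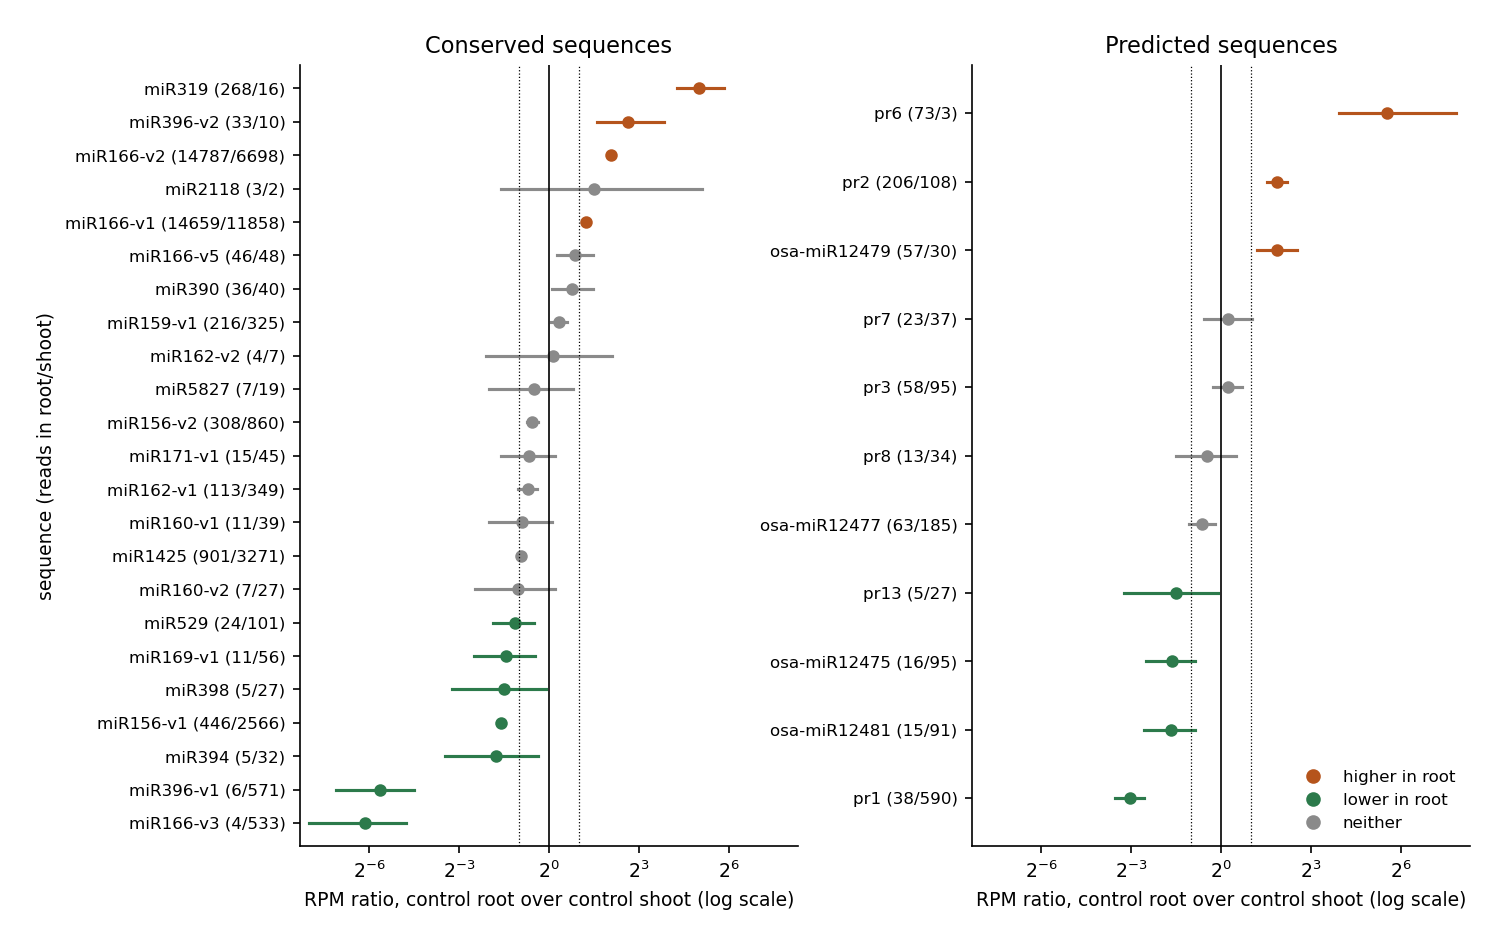
RPM ratio of control root over control shoot on a log axis for the 23 conserved sequences listed in both libraries (left) and for the predicted ones with at least 10 reads in each or a call (right). Points are ratios, bars are 95% counting intervals, dotted lines mark 2-fold, and reads in root and shoot stand in brackets; miR319 (31.9) and pr6 (46.3) lie furthest to the right, miR166-v3 (0.0143) and miR396-v1 (0.0200) furthest to the left.

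miR166 guides cleavage of the mRNAs of HD-ZIP III transcription factors, which set the upper side of leaves and pattern the vascular tissue of roots. miR166-v2 had 14787 reads (2147 RPM) in root and 6698 (511 RPM) in shoot, 4.20-fold higher in root (4.08 to 4.33). miR166-v1 had 14659 reads (2128 RPM) in root and 11858 (904 RPM) in shoot, 2.35-fold higher in root (2.30 to 2.41). Both were thus the leading sequences of root at almost equal level, whereas in shoot miR166-v1 led the conserved sequences. The call of miR166-v1 was lost with raw reads as the denominator (1.42), and with trimmed or NONCODE-filtered reads; that of miR166-v2 was kept under each of the 6 other scalings (2.54 to 5.18).

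The other miR166 sequences differed in direction. miR166-v3, which differs from miR166-v1 by T16A and C21T, had 4 reads in root and 533 (40.6 RPM) in shoot. It was 70.0-fold lower in root (27.2 to 258), the lowest ratio of the conserved sequences. miR166-v5, a miR166-v1 without its last base, had 46 reads in root and 48 in shoot, a ratio of 1.82 (1.19 to 2.79) on the root side that missed the fold threshold, and miR166-v4 was listed in root only. pr1, a predicted sequence from chr3:25295065-25295085 that differs from miR166-v2 by C8T, had 38 reads in root and 590 in shoot. Its ratio was 0.123 (0.0859 to 0.170), so this single-base relative lay on the shoot side while miR166-v2 lay on the root side.

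Within a family the shares of 2 sequences do not depend on the library size. miR166-v1 was 49.8% of the reads of miR166-v1 and miR166-v2 in control root (49.2% to 50.4%) and 63.9% in control shoot (63.2% to 64.6%). The same share was 32.5% in NaCl-treated root and 57.2% in NaCl-treated shoot, so it was lower in the root library of either pair. Against miR166-v1, miR166-v3 had 0.0273% of the reads of both in control root and 4.30% in control shoot, and 0.0631% and 12.4% in the NaCl-treated root and shoot.

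**Figure D2:**
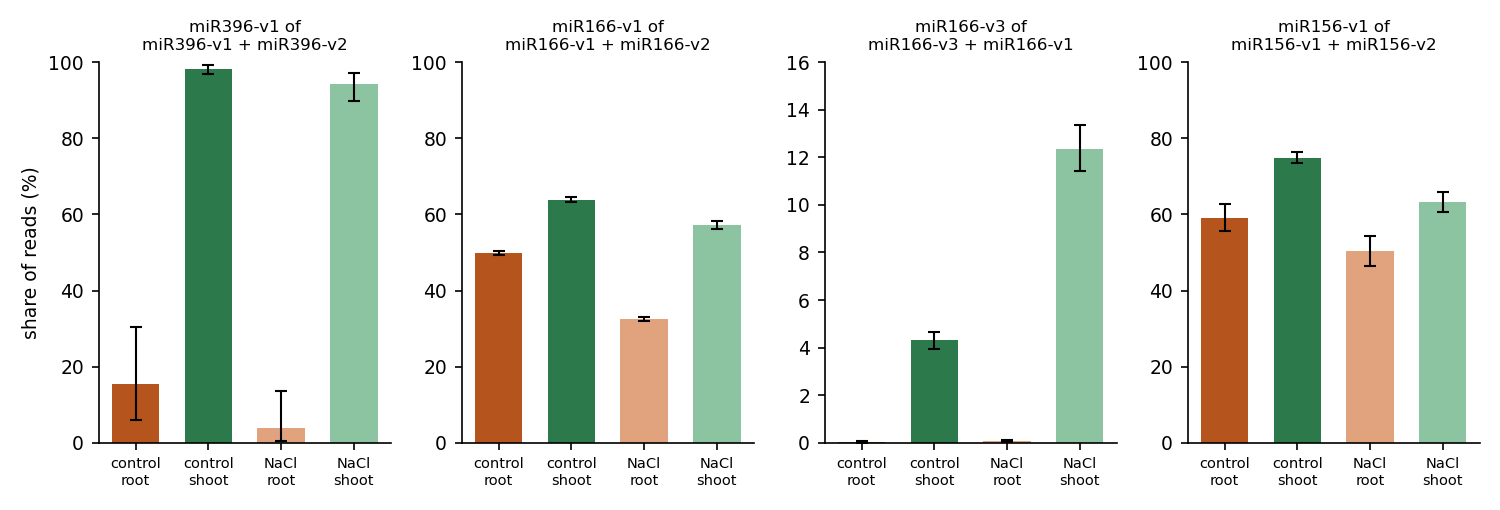
Share of the first-named sequence in the reads of 2 sequences of a family (y axis, percent; the scale of the miR166-v3 panel ends at 16), by library, with 95% binomial intervals. In each panel both shoot libraries lie above both root libraries, most widely for miR396-v1 (15.4% in control root and 98.3% in control shoot). Of the pairs not drawn, pr1 with miR166-v2 went the same way. miR160-v1 with miR160-v2 did not, at 61.1% in control root and 59.1% in control shoot, with overlapping intervals.

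miR396 acts on GROWTH-REGULATING FACTOR mRNAs, whose proteins promote cell division in leaves and roots. miR396-v1, from chr2:34287983-34288003, had 6 reads (0.871 RPM) in root and 571 (43.5 RPM) in shoot, 50.0-fold lower in root (22.8 to 137). miR396-v2, listed at chr6:3669659-3669679, had 33 reads (4.79 RPM) in root and 10 (0.762 RPM) in shoot, 6.28-fold higher in root (3.03 to 14.3). These sequences differ in the last base and were listed at different hairpins, and their ratios lay on opposite sides of 1. The family sum, 39 reads in root and 581 in shoot, was 7.82-fold lower in root (5.65 to 11.1) and followed miR396-v1 alone.

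The related miR159 and miR319 families act on GAMYB-like and TCP transcription factor mRNAs. miR319 had 268 reads (38.9 RPM) in root and 16 (1.22 RPM) in shoot, 31.9-fold higher in root (19.3 to 56.6), and its call was kept under each of the 6 other scalings. The lists placed it at different loci, at chr1:6677579-6677599 in root and at chr1:26823291-26823311 in shoot, where the identical mature sequence occurs. At the root locus the shoot list held pr4, which is miR319 with 1 more base at the 5′ end, with 81 reads. The hairpin of that locus, 213 nt on the minus strand and from the root list, is printed with the bases of both mature sequences in capitals.
chr1:6677562-6677774: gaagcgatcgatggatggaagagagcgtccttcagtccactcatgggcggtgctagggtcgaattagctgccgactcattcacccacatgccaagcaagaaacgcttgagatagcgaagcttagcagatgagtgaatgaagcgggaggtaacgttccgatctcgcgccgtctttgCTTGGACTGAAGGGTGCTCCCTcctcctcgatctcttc
With pr4 added to miR319, shoot had 97 reads and the ratio fell to 5.26 (4.16 to 6.71). Any reads of pr4 in control root are not in its list, so this ratio leaves them out and may be too low. pr4 was listed in NaCl-treated shoot too, with 73 reads, and in neither root list.

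miR159-v1 had 216 reads (31.4 RPM) in root and 325 (24.8 RPM) in shoot, a ratio of 1.27 (1.06 to 1.51) that was not called. miR159-v2, with 78 reads, was listed in root only, and again in NaCl-treated root with 90 reads but in neither shoot list.

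miR156 and miR529 act on SPL mRNAs, whose proteins time the change from juvenile to adult leaves. All 3 sequences of the group had lower RPM in root. miR156-v1 had 446 reads (64.8 RPM) in root and 2566 (196 RPM) in shoot, 3.02-fold lower in root (2.73 to 3.35). miR156-v2, the same sequence without its first base, had 308 reads (44.7 RPM) in root and 860 (65.6 RPM) in shoot, a ratio of 0.682 (0.597 to 0.778) that missed the fold threshold. miR156-v1 was 59.2% of the reads of both in root and 74.9% in shoot. miR529 had 24 reads in root and 101 in shoot, 2.21-fold lower in root (1.40 to 3.61), a call that was lost with TMM factors (0.533) and with the median of ratios (0.557).

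Of the remaining 12 shared conserved sequences 3 were called lower in root, miR169-v1, miR394 and miR398, and 9 were called neither. miR169-v1, of a family that acts on NF-YA transcription factor mRNAs, had 11 reads in root and 56 in shoot, 2.67-fold lower in root (1.39 to 5.66). miR394, which acts on the mRNA of an F-box protein of leaf and meristem development, had 5 and 32 reads, 3.36-fold lower in root (1.30 to 11.0). miR398, which acts on Cu/Zn superoxide dismutase mRNAs, had 5 and 27 reads, 2.84-fold lower in root (1.08 to 9.43), and its interval included 1 with TMM factors and with the median of ratios. miR1425, of a rice family that acts on pentatricopeptide repeat mRNAs, was abundant in both, with 901 reads (131 RPM) in root and 3271 (249 RPM) in shoot. Its ratio of 0.525 (0.487 to 0.565) lay just outside the fold threshold and passed it with raw reads (0.317).

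miR162-v1, which acts on the mRNA of DICER-LIKE1, had 113 reads in root and 349 in shoot, a ratio of 0.617 (0.494 to 0.764). miR171-v1, which acts on GRAS transcription factor mRNAs, had 15 and 45 reads, and its interval included 1 (0.329 to 1.16). Of the remaining sequences called neither, miR162-v2, miR2118, miR5827 and miR160-v2 had fewer than 10 reads in root, and the intervals of these 4 included 1.

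Of the 11 sequences of the auxin group (miR160, miR164, miR167, miR390 and miR393, which act on auxin response factors, NAC factors, TAS3 and the TIR1-type receptors), 3 were shared, 3 were in root only and 5 in shoot only. None of the 3 shared was called. miR390, which starts the TAS3 siRNAs against auxin response factors, had 36 reads in root and 40 in shoot, a ratio of 1.71 (1.06 to 2.76). miR160-v1 had 11 and 39 reads, with a ratio of 0.537 (0.248 to 1.07). miR160-v2 differs from it by A21G and had 7 and 27 reads, a ratio of 0.494 (0.182 to 1.16) past the fold threshold but with 1 inside the interval. miR393 had 69 reads (5.26 RPM) in the shoot without NaCl and 101 in that with NaCl, and was listed in neither root library.

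Summed over each family's listed sequences, 18 of 29 conserved families were in both lists. Of these, 2 families (11.1%) were called higher in root, miR166 and miR319, and 8 (44.4%) were called lower, miR156, miR160, miR167, miR169, miR394, miR396, miR398 and miR529. A sequence listed in 1 library adds nothing to the other side of these sums, although its reads there are unknown. The call of miR160 used 18 reads in root and 79 in shoot, while its sequences in both lists had 18 and 66. With these alone its ratio missed the fold threshold, so its call rested on miR160-v3, listed in shoot only. The call of miR167 compared no sequence common to the lists. miR166 summed to 4296 RPM in root and 1459 RPM in shoot, 2.94-fold higher in root, with a lower bound of 2.89. Raw reads as the denominator gave 1 higher and 12 lower family, where miR166 had a ratio of 1.78, and the median of ratios gave 4 of each, where miR159 (2.12) and miR390 (2.11) passed and miR156 (0.516), miR160 (0.534), miR398 (0.434) and miR529 (0.557) did not. miR164 had 2 reads in root and 16 in shoot, but from opposite arms of different hairpins, so its sum compares different molecules.

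A different mature sequence could stand for the same hairpin in each list. The lists held 172 hairpin loci in root and 445 in shoot, with no overlapping hairpins on a strand within a list, so that each locus carried 1 mature sequence. At 101 loci the hairpins of root and shoot overlapped, which is 58.7% of the root loci and 22.7% of the shoot loci. At 78 of them both lists held the identical sequence. At the other 23 they held different ones, 14 distinct pairs, always on the same arm and overlapping by at least 18 nt. Of these 23 loci, 9 had the same 5′ end, 4 the same 3′ end and 10 were shifted at both ends.

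The miR166 and miR167 families accounted for 11 of the 23 loci. At 4 miR166 hairpins the root list held miR166-v2 and the shoot list miR166-v1, which starts and ends 2 bases further downstream. Each list held the one that had more reads in its library. In control root that lead was within counting error, at 14787 reads of miR166-v2 and 14659 of miR166-v1 (49.8% of both, 49.2% to 50.4%). The hairpin at chromosome 10, 145 nt on the plus strand, is printed with the bases of both mature sequences in capitals; its passenger strand is described below.
chr10:19987134-19987278: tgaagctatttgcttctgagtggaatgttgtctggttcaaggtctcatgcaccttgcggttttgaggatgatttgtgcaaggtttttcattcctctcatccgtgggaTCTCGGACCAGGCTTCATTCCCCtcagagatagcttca
At 5 miR167 hairpins the root list held the 21-nt miR167-v2 and the shoot list the 22-nt miR167-v1, which has 1 more base at the 3′ end. At 2 further hairpins they held the 20-nt miR167-v3 and the 21-nt miR167-v4. The NaCl libraries, which chose nothing here, had the same forms. NaCl-treated root held miR166-v2 at the 4 loci, miR167-v2 at the 5 and miR167-v3 at the 2, and NaCl-treated shoot held miR166-v1, miR167-v1 and miR167-v4 there. The 11 loci carry only 3 pairs of sequences, so they are not 11 separate cases.

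miR167, which acts on auxin response factor mRNAs, thus had no sequence in common between the control lists. miR167-v1 had 616 reads (47.0 RPM) in shoot and miR167-v2 96 (13.9 RPM) in root, the latter listed in NaCl-treated root with 148 reads. As 1 form of the locus, these 2 had a ratio of 0.297 (0.237 to 0.369). The shorter forms, miR167-v3 with 26 reads in root and miR167-v4 with 21 in shoot, had a ratio of 2.36 (1.28 to 4.41). The reads of the unlisted form in each library are not in the lists, so these sums leave them out.

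Other shifted pairs involved predicted sequences. At chr6:28489785-28489896 the root list held miR397, of a family that acts on laccase mRNAs, with 10 reads, and the shoot list held pr29, which begins 3 bases further downstream, with 14. osa-miR12477, from chromosome 2, shares 18 consecutive bases with miR397 and its seed with pr29. It had 63 reads (9.15 RPM) in root and 185 (14.1 RPM) in shoot, a ratio of 0.649 (0.479 to 0.868). At a hairpin of chromosome 11 the shoot list held osa-miR12476 with 138 reads and the root list pr10, 1 base shorter at the 5′ end, with 39. NaCl-treated root and shoot listed osa-miR12476, with 50 and 56 reads. Taken as 1 form, pr10 in control root and osa-miR12476 in control shoot had a ratio of 0.538 (0.367 to 0.773) and no call. Here too the reads of the unlisted form in each library are left out.
chr11:23702846-23702959: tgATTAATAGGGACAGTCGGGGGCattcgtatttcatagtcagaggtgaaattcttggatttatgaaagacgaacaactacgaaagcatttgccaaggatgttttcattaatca
This hairpin, 114 nt on the minus strand, is shown because it decides whether osa-miR12476 counts as absent from root, and its mature sequence matched 7 places in the genome. From textbook knowledge the part after the mature sequence resembles the small-subunit ribosomal RNA of plants, which was not compared with an rRNA reference here.

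The passenger strand of the chromosome 10 miR166 hairpin differed more than the mature sequences. It had 113 reads (16.4 RPM) in root and 3 (0.229 RPM) in shoot, a ratio of 71.7 (23.9 to 353). In the NaCl pair, which did not enter this ratio, it had 116 and 5 reads. miR166-v4 was its main form in root, with 94 of the 113 reads. It was listed as a mature sequence in root with 94 reads (13.6 RPM), assigned to another miR166 hairpin at chr3:765735-765755, and was not listed in shoot. The shoot list nevertheless gave it 2 reads as the passenger strand at chromosome 10, so that the ratio was 89.5 (24.1 to 750). This was the only sequence listed in 1 control library that appeared among the passenger strands of the other. The other shared miR166 hairpins differed in direction. On chromosome 3 the hairpin at 30392798 had 0 passenger reads in root and 35 in shoot, and that at 3487878 had 0 and 12. The hairpins on chromosomes 2 and 9 had 4 and 8 and 0 and 1, while those on chromosomes 6 and 12 had 11 and 4 and 2 and 0.

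At the miR167 hairpin of chr12:25480611-25480744 the direction was opposite, with 5 passenger reads in root and 83 (6.33 RPM) in shoot, a ratio of 0.115 (0.0363 to 0.279), and the NaCl pair had 10 and 74. Passenger reads were given in at least 1 list at 42 shared loci and in both at 20. Some passenger sequences recurred, with the same reads, at up to 3 of these loci. With each distinct one counted once, they summed to 202 reads in root and 294 in shoot, a ratio of 1.31 (1.09 to 1.57), and without those of the 2 hairpins to 84 and 208, a ratio of 0.769 (0.590 to 0.995). The root side of the sum thus rested on the chromosome 10 miR166 hairpin, since the miR167 hairpin went the other way.

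The 8 conserved sequences of the root list only had 2 to 96 reads, and 5 of them were listed in NaCl-treated root and 0 in NaCl-treated shoot. Beside those described, they were miR171_2, deposited as mir479, with 32 reads, miR528 with 7, of a monocot family known for copper protein and oxidase targets, and miR164-v2 with 2. The 14 of the shoot list only had 2 to 616 reads, and 10 of them were listed in NaCl-treated shoot and 1, miR164-v1, in NaCl-treated root. miR827, which acts on SPX-domain genes of phosphate homeostasis, had 153 reads (11.7 RPM) in the shoot without NaCl and 68 in that with NaCl. miR172, which acts on AP2-type mRNAs and opposes miR156 in phase change, had 10 and 24 reads, miR160-v3 had 13 and 37, and miR171-v2 had 11 and 43. The other 6 of the shoot list, miR169-v2, miR1320, miR1427, miR2275, miR2864 and miR5513, had 2 to 5 reads. At the hairpin of miR1320 the root list held pr37, with 11 reads, which shares 20 consecutive bases with it.

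**Figure D3:**
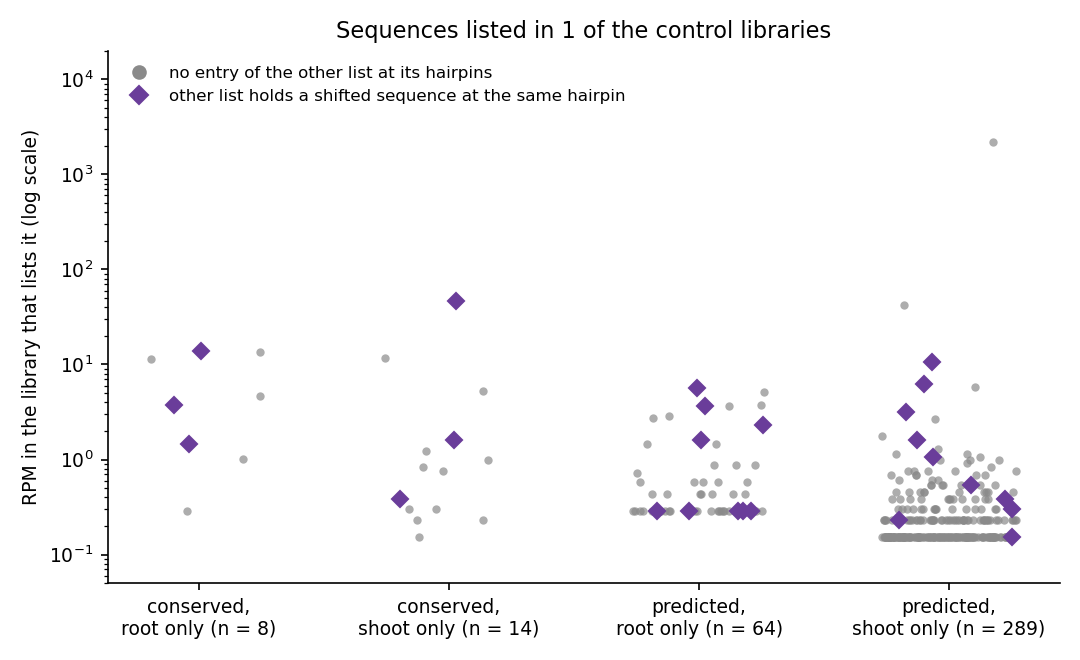
RPM, on a log axis, of the sequences listed in 1 control library, by kind and tissue; diamonds mark sequences at whose hairpin the other list holds a shifted sequence. Among conserved sequences this holds for 3 of 8 root-only and 3 of 14 shoot-only ones; the highest shoot-only point, at 2212 RPM, is osa-miR12474.

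Among the 380 predicted sequences only 27 were shared, 29.7% of those of root and 8.54% of those of shoot. Of these, 3 were called higher in root and 4 lower, against the 14% and 22% of all shared sequences given above. pr6 had 73 reads (10.6 RPM) in root and 3 in shoot, a ratio of 46.3 (15.2 to 230). pr2, which matched 10 places in the genome, had 206 reads (29.9 RPM) in root and 108 (8.23 RPM) in shoot, 3.63-fold higher in root (2.86 to 4.63). Its listed hairpins had 60 nt and deposited p-values of the fold of 0.0198 to 0.0396, above the 0.01 allowed by an alternative filter. Those of pr6 and osa-miR12479 had 0.0099. Whether pr2 comes from another kind of non-coding RNA was not tested. osa-miR12479 had 57 and 30 reads, 3.62-fold higher in root (2.29 to 5.83). These 3 calls were kept under each of the 6 other scalings, which do not test whether a hairpin is a miRNA precursor.

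Lower in root were pr1, osa-miR12475, osa-miR12481 and pr13. osa-miR12475 had 16 reads in root and 95 in shoot, a ratio of 0.321 (0.176 to 0.548). osa-miR12481 had 15 and 91 reads, a ratio of 0.314 (0.169 to 0.545). pr13 had 5 and 27 reads, and its upper bound of 0.929 lay close to 1. Its call was lost with the median of ratios (0.434, upper bound 1.14) and with TMM factors. Of the others with at least 10 reads in each library, pr3 (58 and 95 reads), pr7 (23 and 37) and pr8 (13 and 34) had intervals that included 1.

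Most predicted sequences stood in 1 list and were rare. Of the 64 of root only, 37 had 2 reads and 11 had at least 10. Of the 289 of shoot only, 155 had 2 reads and 24 had at least 10. Since the shoot library had 1.90 times the reads used, 207 of the 289 had a level that would give fewer than 2 reads at the depth of the root library. Of the root-only ones, 10 (15.6%) were listed in NaCl-treated root and 5 (7.81%) in NaCl-treated shoot. Of the shoot-only ones, 46 (15.9%) were listed in NaCl-treated shoot and 22 (7.61%) in NaCl-treated root. With at least 10 reads, 3 of 11 root-only and 10 of 24 shoot-only sequences were listed in the NaCl library of the same tissue. No other list held 50 of the 64 and 230 of the 289.

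osa-miR12474 was the most abundant of the shoot-only sequences. It was listed at 2 loci, chr2:28716971-28716992 and chr9:1459-1480, the latter at the very start of the chromosome, and matched 6 places in the genome. The same 55 passenger reads were given at both loci. From textbook knowledge its sequence resembles the 3′ part of the large-subunit ribosomal RNA of plants, which was not compared with an rRNA reference here. Without it, conserved sequences made up 89.5% of the listed reads of control shoot and the predicted ones summed to 255 RPM. It was listed in none of the other 3 libraries. osa-miR12478, from chr2:19416181-19416202, had 556 reads (42.4 RPM) and matched 12 places. Next came osa-miR12476 and pr4, described above, and pr5 with 76 reads. In root only, the most abundant were pr10 with 39 reads, pr11 with 35, pr15 with 26, and pr16 and pr17 with 25 each. pr17 had a counterpart in shoot, pr19, 1 base longer at the 3′ end, with 21 reads.

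The predicted sequences of the lists also differed in composition. In root 45.1% of the 91 predicted sequences began with T (34.6% to 55.8%) and in shoot 76.9% of the 316 (71.9% to 81.4%). In root 48.4% were 22 nt long (37.7% to 59.1%) and in shoot 68.0% (62.6% to 73.1%). The ranges in brackets are binomial intervals that take the sequences of a list as independent. Sequences are not replicates of a tissue, so these ranges describe the lists and are no test of root against shoot. Sequences that were both 22 nt and began with T were 20 of the 91 in root and 176 of the 316 in shoot. At or above 0.290 RPM, the level of 2 reads in control root, 101 predicted sequences of shoot were left, and 72.3% of these began with T and 65.3% had 22 nt, so the gap was nearly as wide among levels both libraries could list. Among those with at least 10 reads the gap in the first base was gone, since 61.9% of 21 in root and 61.5% of 39 in shoot began with T, whereas 28.6% and 59.0% had 22 nt. In the NaCl libraries 39.4% of the predicted sequences of root and 56.3% of those of shoot began with T, but 60.1% and 50.4% had 22 nt, so the difference in length had the other sign there.

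The hairpins differed as well. The median G+C of predicted hairpins was 44.3% for root-only, 45.5% for shared (root list) and 34.3% for shoot-only sequences. The folding energy per 100 nt had medians of -45.6, -44.0 and -39.5 kcal/mol in that order, a weaker fold in shoot-only hairpins, with quartiles of -61.9 to -35.9 in root-only and -49.5 to -33.2 in shoot-only ones. Their precursors had median lengths of 96 and 127 nt. Conserved hairpins had median G+C of 47.6% in root-only, 51.8% in shared and 47.8% in shoot-only sequences. Passenger reads were given at 45.5% of the shared conserved loci in root and 57.8% in shoot, but at 14.9% of the root-only and 11.5% of the shoot-only predicted loci. In both control lists the conserved sequences were mostly of 21 nt (77.4% in root and 81.1% in shoot) and began with T (83.9% and 86.5%).

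**Figure D4:**
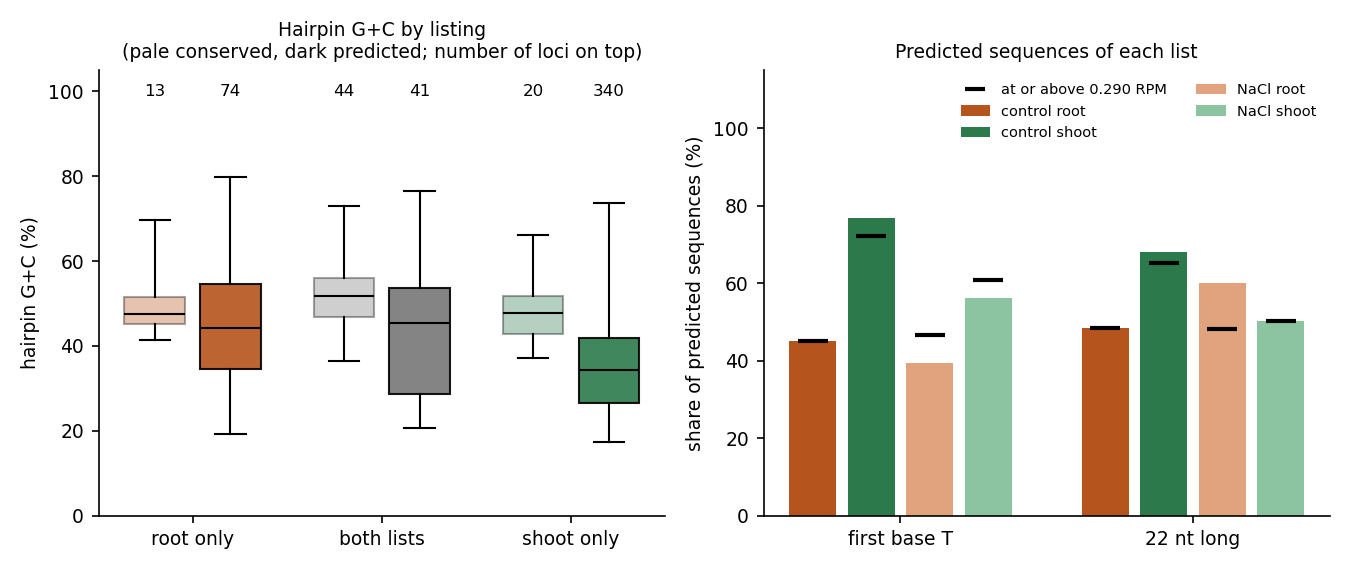
Left, G+C of hairpins in percent by listing and kind; boxes span the quartiles, lines in them are medians and whiskers reach the extremes. Right, share of the predicted sequences of each list that began with T or had 22 nt, with dashes for those at or above 0.290 RPM; control shoot has the highest share of both (76.9% and 68.0%).

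The same comparison in seedlings under NaCl shares no library with the one above. All 4 libraries listed 29 of the 50 shared sequences, 19 conserved and 10 predicted, which leaves out those that fell from a list. Of the conserved ones, 17 lay on the same side of 1 in both pairs, and of the 11 called in the control pair 10 were called in the same direction in the NaCl pair. Of the 10 predicted ones, only 4 lay on the same side, and 3 of the 4 called in the control pair were called in the same direction. Over the 29 sequences Pearson's r of the log2 ratios was 0.73 and Spearman's rho 0.70. The values were 0.81 and 0.74 over the conserved sequences and 0.31 and 0.55 over the predicted ones. They are given as a description of sequences that share their libraries.

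The widest ratios among the 29 kept their direction. pr6, which had a wider ratio than miR319 in the control pair, was not listed in NaCl-treated root. miR396-v1 had 2 and 179 reads in NaCl-treated root and shoot, a log2 ratio of -6.80 after -5.64 in the control pair. miR166-v3 had 7 and 561 reads, a log2 ratio of -6.64 after -6.13. miR319 had 308 and 39 reads and a ratio of 6.36 (lower bound 4.55) in place of 31.9, a log2 difference of -2.33 (-3.20 to -1.45). miR169-v1 went from 0.374 to 0.0486 and miR394 from 0.298 to 0.0456, with log2 differences of -2.94 (-4.07 to -1.82) and -2.71 (-4.51 to -0.90). Over the 19 conserved sequences the median difference was -1.15, and the counting interval excluded 0 for 13, of which 11 had a lower ratio in the NaCl pair. These differences take the reads used as the denominator, and no other scaling was applied to the NaCl pair. The reads used were 32.4% of the raw reads in control root and 53.6% in control shoot. They were 53.9% in NaCl-treated root and 44.3% in NaCl-treated shoot. With raw reads as the denominator each log2 difference would thus be higher, so how far the conserved ratios fell is not settled.

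A few ratios changed side. miR398 had 5 reads in control root and 27 in control shoot, but 65 in NaCl-treated root and 4 in NaCl-treated shoot, so its ratio went from 0.353 to 13.1, a log2 difference of 5.21 (3.21 to 7.22). osa-miR12477 had 63, 185, 295 and 14 reads in the same order, and its ratio went from 0.649 to 17.0, a difference of 4.71 (3.83 to 5.59). miR159-v1 had 216, 325, 226 and 506 reads and went from 1.27 to 0.360, a difference of -1.82 (-2.15 to -1.48). Under the 6 other scalings its control ratio ran from 0.764 to 1.56, so its side in the control pair was not settled. pr1 stayed on the shoot side and moved from 0.123 to 0.612. The remaining sequences on different sides of 1 were all predicted, and the interval of each difference included 0.

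**Figure D5:**
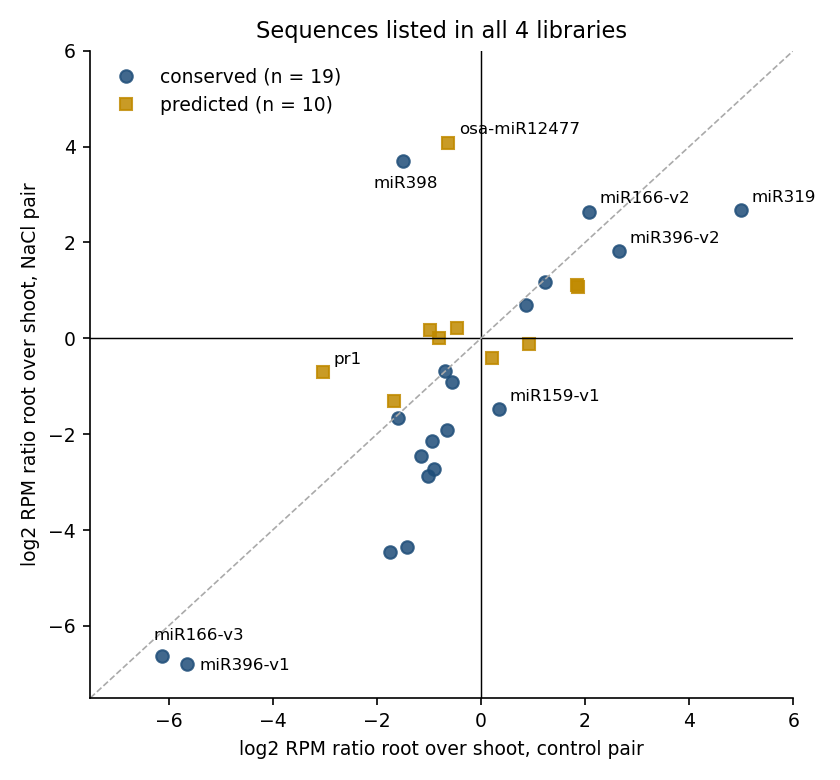
log2 RPM ratio of root over shoot in the control pair (x axis) and in the NaCl pair (y axis) for the 29 sequences listed in all 4 libraries; the dashed line marks equal ratios. miR398 and osa-miR12477 lie in the upper left, at -1.50 and -0.62 in the control pair and 3.71 and 4.08 in the NaCl pair.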

How the data were processed

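Small RNA of control root and control shoot, and of the NaCl-treated pair for comparison, was sequenced single-end on an Illumina instrument, with 1 library each. The authors trimmed and filtered the reads (NGS QC Toolkit, cutadapt, UEA Small-RNA Workbench), removed other non-coding RNA, searched miRBase and predicted further miRNAs on the rice genome. No source used here names the prediction tool or the versions of the trimming tools. The deposited lists have 1 entry per hairpin locus, with coordinates of the rice genome IRGSP-1.0. In the deposited abundance column the count of reads of a mature sequence recurs at all its loci, so each distinct sequence was counted once. The deposited RPM is that count per 1000000 reads used. The log2 of the RPM was deposited too. The deposited hairpin values are lengths, folding energy, G+C in percent and a p-value of the fold.

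The depth is the number of reads used, derived from the count and the RPM. The reads used were 32.4% of the raw reads in control root and 53.6% in control shoot. Ratios have exact conditional 95% intervals that cover counting error only, since PCR reads are not independent molecules. The log2 difference between the control and the NaCl pair has a normal interval from the 4 counts. Passenger reads are those of the miRNA* column, and their sums count each distinct sequence once. The call rule was tested on simulated data. Alternatives were other denominators (raw, trimmed and NONCODE-filtered reads, listed reads, median of ratios, TMM of edgeR 4.0.16), a minimum of 10 reads, a hairpin p-value of at most 0.01, a single genomic match, a fold of 1.5 and other units of counting. Every conserved sequence could be named. Of the predicted ones, those named by the study, the 5 highest and 5 lowest ratios with at least 10 reads in each library, and the 5 most abundant of each list and of those in 1 list only were named. Others were named because they overlap one of these, differ from one by a base, or were called, and were chosen after their values were seen. The members and lists were chosen with earlier results of these data known. Lines without content were left out. The family deposited as mir479 is called miR171_2, its name in miRBase. The work was done in R 4.3.3 and in Python 3.11.15, the latter with scipy 1.17.1 and pandas 2.3.3.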

Additional observations from a re-analysis of the deposited data

Results flagged for a closer look

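In 8 sequences the log2 ratio of root over shoot lay on opposite sides of 0 in the control and in the NaCl pair. With 1 library for each condition no test of these differences was made. miR398 was at -1.50 and 3.71, osa-miR12477 at -0.62 and 4.08, and miR159-v1 at 0.34 and -1.48, and for these 3 the counting interval of the difference excluded 0. It included 0 for the other 5. These were pr3 at 0.22 and -0.40, pr8 at -0.46 and 0.22, pr22 at -0.98 and 0.17, pr25 at 0.93 and -0.13, and pr31 at -0.81 and 0.0094. Sides were taken with the reads used as the denominator. The control ratio of miR159-v1 ran from 0.764 to 1.56 under the 6 other scalings, so its change of side depends on the denominator.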

How the results depend on the processing

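Of the 17 called sequences named by the rule, 14 kept their call under each of the 6 other scalings; miR166-v1, miR398 and miR529 did not, as given with their values, nor did pr13, which was named outside the rule. The scalings moved all log2 ratios of the control pair by -0.73 (raw reads), -0.62 (trimmed), -0.61 (NONCODE-filtered), -0.06 (listed reads), 0.30 (median of ratios) and 0.24 (TMM). They were not applied to the NaCl pair. The median log2 ratio of shared conserved sequences, -0.66, became -1.38, -1.28 and -1.27 with raw, trimmed and NONCODE-filtered reads, -0.36 with the median of ratios, -0.42 with TMM, -0.55 with at least 10 reads in each library and -0.81 with a single genomic match. That of predicted sequences, 0.22, became -0.51, -0.41, -0.39, 0.52, 0.45, -0.46 and -0.071 in the same order, so its sign is not settled. With at least 10 reads the conserved calls fell from 11 to 7, and with a single match to 3, 0 of them higher in root, since fewer sequences were compared; predicted calls fell from 7 to 4 with a single match. Predicted calls were 3 higher and 7 lower with raw reads. The listed total, 1.04, was 0.629, 0.677 and 0.683 with the raw, trimmed and NONCODE-filtered reads, 1.40 without the most abundant sequence of each library and 1.99 without osa-miR12474, the last chosen after seeing the data. Sequences in 1 list only fell from 375 to 49 with at least 10 reads, and to 350 where a mature sequence overlapping by at least 15 nt counted as the same, also chosen after seeing the data. The ratio of passenger reads, 1.31, was 1.18 (0.985 to 1.40) where the reads of each locus were summed, an alternative also chosen after seeing the data. No paired analysis was possible because each condition has 1 library, and no replicate could be left out. Depth limits what can be said of sequences with a few reads.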

Other observations

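Of its 31 conserved sequences, control root shared 24 with NaCl-treated root, 23 with control shoot and 22 with NaCl-treated shoot, and no test was made of these overlaps. Control shoot shared 32 of its 37 with NaCl-treated shoot and 20 with NaCl-treated root. Of the 316 predicted sequences of control shoot, 64 recurred in NaCl-treated shoot and 34 in NaCl-treated root. Of the 91 of control root, 22 recurred in NaCl-treated root, 23 in NaCl-treated shoot and 27 in control shoot.

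The hairpins of miR169-v1 on chromosomes 8 and 9 gave passenger reads in shoot at each of the 5 loci listed in both libraries, 3 to 21 reads a locus, against 0 to 2 in root. The loci share passenger sequences and so repeat reads. With each distinct sequence counted once, there were 31 reads in shoot and 2 in root, a ratio of 0.123 (0.0142 to 0.483). At chromosome 1 the miR156-v2 hairpin at position 4666383 had 10 passenger reads in root and 2 in shoot, a ratio of 9.52 (2.03 to 89.4), while the mature sequence had a ratio of 0.682. The other miR156-v2 hairpins had at most 1 passenger read in each library. Of the miR156-v1 hairpins, that on chromosome 6 had 4 in root and 32 in shoot, a ratio of 0.238 (0.0612 to 0.671). That on chromosome 2 had 18 and 32, a ratio of 1.07 (0.566 to 1.97).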
